A study of Mus musculus with 2 samples.

Results

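The genes described here encode 10 cytosolic aminoacyl-tRNA synthetases, Aars, Gars, Sars, Nars, Wars, Tars, Yars, Iars, Eprs and Lars, found by symbol among the 32285 genes of the deposited count files. All 10 were present and each had UMIs in both libraries. The study compared splenic dendritic cells (DC) of WT mice (H2-Aa +/+) with those of H2-Aa cit/cit mice, which are homozygous for an ENU-induced allele, citation, of the gene for the MHC class II alpha chain. The allele is in the germline, so all cells of these mice carry it. The mutant library is called cit below. Each library was made from the pooled spleens of 3 female mice aged 4 months, which had received no treatment. The cells were enriched for CD11c with beads and then sorted as live CD45.2+ CD11c+ cells, so both libraries also hold other CD11c+ cells. There was 1 library per genotype and no record of which mouse a cell came from, so no test was possible, and every interval below covers counting error only, not differences between mice or preparations.

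Aminoacyl-tRNA synthetases join each amino acid to its tRNA before translation. Eprs, Iars and Lars belong, with the enzymes for lysine, arginine, aspartate, glutamine and methionine, to the multisynthetase complex, while the other members described here act outside it. Many synthetase genes are known targets of ATF4, a transcription factor of the integrated stress response, which is activated when eIF2-alpha kinases such as PERK sense misfolded protein in the ER or when amino acids run short. Wars is in addition a known interferon gamma-induced gene.

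Promoter sequence is shown first, for the 7 members with a promoter sequence at hand, of which 5 held the motif searched. The members and the motif were chosen with earlier results of these data known. Many synthetases are also known ATF4 targets, so the counts below are descriptions and not independent evidence. RefSeq promoter windows (build GRCm38.p6, 250 bases before to 50 after the start site) were used for these 7 of the 10 members. The core of the C/EBP-ATF response element, to which ATF4 binds with C/EBP partners, was searched as TGATGNAA on both strands (read on the other strand as TTNCATCA). The 5 of 7 members stand against 1219 of 27025 genes with a window (4.51%), or 1304 of 32851 windows of all genes (3.97%). The motif was in 0 of the 6 windows at hand for other cytosolic synthetases (Dars, Farsa, Farsb, Kars, Mars1 and Qars). The 5 windows are printed 5′ to 3′ on the strand of the gene, with the matches in capitals.

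Aars: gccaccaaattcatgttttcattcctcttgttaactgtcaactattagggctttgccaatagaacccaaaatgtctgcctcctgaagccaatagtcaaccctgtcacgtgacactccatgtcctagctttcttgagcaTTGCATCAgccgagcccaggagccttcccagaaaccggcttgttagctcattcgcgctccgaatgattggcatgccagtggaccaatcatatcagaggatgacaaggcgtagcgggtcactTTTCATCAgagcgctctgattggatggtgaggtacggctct

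Gars: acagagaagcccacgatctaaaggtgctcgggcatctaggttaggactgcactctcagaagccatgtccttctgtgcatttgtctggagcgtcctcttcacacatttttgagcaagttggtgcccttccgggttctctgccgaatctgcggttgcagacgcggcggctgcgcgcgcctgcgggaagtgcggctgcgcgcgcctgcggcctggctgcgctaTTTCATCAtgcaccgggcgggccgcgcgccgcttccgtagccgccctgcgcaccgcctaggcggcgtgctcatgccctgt

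Tars: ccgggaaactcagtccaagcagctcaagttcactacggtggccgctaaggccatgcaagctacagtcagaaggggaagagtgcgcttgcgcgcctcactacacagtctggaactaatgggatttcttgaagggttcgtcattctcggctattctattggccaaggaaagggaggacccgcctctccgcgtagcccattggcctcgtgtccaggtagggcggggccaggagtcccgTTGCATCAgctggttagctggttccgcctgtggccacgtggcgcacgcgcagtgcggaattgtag

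Yars: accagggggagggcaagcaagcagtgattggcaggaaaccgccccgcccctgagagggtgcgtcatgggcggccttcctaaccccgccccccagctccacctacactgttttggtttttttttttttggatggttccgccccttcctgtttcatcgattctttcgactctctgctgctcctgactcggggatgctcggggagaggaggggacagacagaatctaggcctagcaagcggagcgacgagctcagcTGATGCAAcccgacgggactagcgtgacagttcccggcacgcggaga

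Iars: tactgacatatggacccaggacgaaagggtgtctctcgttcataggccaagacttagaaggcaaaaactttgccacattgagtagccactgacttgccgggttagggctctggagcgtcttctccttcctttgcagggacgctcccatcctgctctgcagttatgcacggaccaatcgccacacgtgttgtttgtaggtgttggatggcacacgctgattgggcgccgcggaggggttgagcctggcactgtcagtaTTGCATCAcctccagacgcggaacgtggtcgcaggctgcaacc

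The Aars window (chr8:111033592-111033891, plus strand) held 2 matches, 1 beginning 112 bases before and 1 beginning 9 bases after the start site. In Gars (chr6:55037751-55038050, plus strand) the match began 30 bases before the start site, and in Tars (chr15:11399609-11399908, minus strand) 15 bases before it. In Yars (chr4:129189653-129189952, plus strand) and Iars (chr13:49681880-49682179, plus strand) the matches began 3 and 7 bases after it. The windows of Sars (chr3:108445210-108445509, minus strand) and Eprs (chr1:185362794-185363093, plus strand) held no match, which says only that these letters were not in these 300 bases. The windows of Wars (gene at chr12:108860030-108894174 in GENCODE vM21), Nars and Lars (both on chromosome 18) were not analysed here. A match is a description of sequence, and no binding was measured.

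The WT library held 7814 cells (51020804 UMIs, median 5492 per cell) and the cit library 11525 cells (72652201 UMIs, median 5633 per cell). The targeted gene itself had 276007 UMIs in WT and 4807 in cit cells. The 2 libraries shared 31 cell barcodes. Cells were put into classes by summed marker UMIs. The cDC2-like cells whose own share of ribosomal protein genes was below 8% were kept apart as low-ribosomal cells. The median of this share differed between the libraries as a whole (11.0% in WT and 16.2% in cit). The main classes held 1565 WT and 4041 cit Ffar2 cDC2-like cells, 236 and 682 Ccr2 cDC2-like cells, 871 and 959 low-ribosomal cDC2-like cells, 572 and 589 cDC1-like cells, 1877 and 1171 mature DC-like cells, 256 and 527 proliferating cells, and 124 and 163 pDC-like cells. A further 70 WT and 58 cit cells passed the gate of another blood lineage. Another 87 and 109 passed certain pairs of gates, and neither set entered a class. No class lacks these genes, so no background class could be named for them.

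Over all cells together, the 10 synthetases summed to 360.1 CPM (UMIs of the gene per 1000000 UMIs of the class) in WT and 646 CPM in cit cells, and all 10 were at least 1.3-fold higher in cit. Of all genes with at least 50 UMIs, 10.8% were higher by that fold. The folds ran from 1.62 for Tars to 2.13 for Sars. These totals mix classes that make up different shares of the 2 libraries, so the classes were then taken one by one.

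In Ffar2 cDC2-like cells, the most numerous class over both libraries together, all 10 synthetases had a higher level in the cit library, and 8 of the 10 were at least 1.3-fold higher, where 7.95% of the genes with at least 50 UMIs in the class were. The median of their log2 ratios was 0.61, and that of all genes was -0.02. At a fold of 1.5 the count was 5, and the share of all genes at that fold is not given here. Without the cells of 1 cluster, described further on, the count was 3 at 1.3-fold, with a median of 0.30. That cluster was found almost wholly in the cit library (1 WT and 778 cit cells over all classes). Aars, the alanyl-tRNA synthetase, had 197 UMIs (15.3 CPM) in WT and 909 UMIs (30.2 CPM) in cit cells, a log2 ratio of 0.98 (95% interval 0.75 to 1.21). This was the highest ratio of the 10 in this class. Iars, which charges isoleucine tRNA in the complex, was measured at 26.5 CPM in WT and 44.0 CPM in cit cells, a log2 ratio of 0.73 (0.56 to 0.91). Wars, the tryptophanyl enzyme, was measured at 16.3 and 25.9 CPM, a log2 ratio of 0.67 (0.45 to 0.90). The intervals of Iars and Wars overlapped that of Aars, so counting alone did not separate these 3.

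The next 4 members fell between log2 ratios of 0.53 and 0.64 in Ffar2 cDC2-like cells. Sars, for serine, stood at 47.1 CPM in WT and 73.3 CPM in cit cells, and Yars, for tyrosine, at 25.7 and 40.1 CPM. Nars, for asparagine, was at 62.4 and 92.8 CPM, and Eprs, the joined enzyme for glutamate and proline, at 65.8 and 94.8 CPM. All 4 intervals lay above a ratio of 1. Gars, for glycine, stood just past the fold with 31.4 and 41.2 CPM (1.31-fold), and Lars, for leucine, just short of it with 62.0 and 79.4 CPM (1.28-fold). Tars, for threonine, had the lowest ratio, with 19.1 CPM in WT and 23.0 CPM in cit cells, a log2 ratio of 0.26 (0.05 to 0.48). Its interval and that of Aars did not overlap. In this class the summed level of the 6 plasma cell markers was 2.49 CPM in WT and 18.7 CPM in cit cells, of which the ER degradation gene Derl3 gave 0.700 and 18.2 CPM, while Jchain had 7 and 9 UMIs, Igha 8 and 1, Prg2 7 and 4, Sdc1 1 and 0, and Tnfrsf17 0 in both. The T, NK, neutrophil and erythroid panels each summed to at most 10.2 CPM in either library, and the B panel to 38.6 and 36.8 CPM. The mature CCR7 DC panel summed to 195 CPM in WT and 112 CPM in cit cells and the macrophage panel to 15.2 and 6.07 CPM. The Ccr2 panel was higher in cit, at 121 and 179 CPM. The part of any of these markers in the result was not tested. Because UMIs were read from one end of each transcript by a 3′ method, the CPM of one synthetase was not set against that of another, and levels are compared only between libraries or classes for the same gene.

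**Figure D1:**
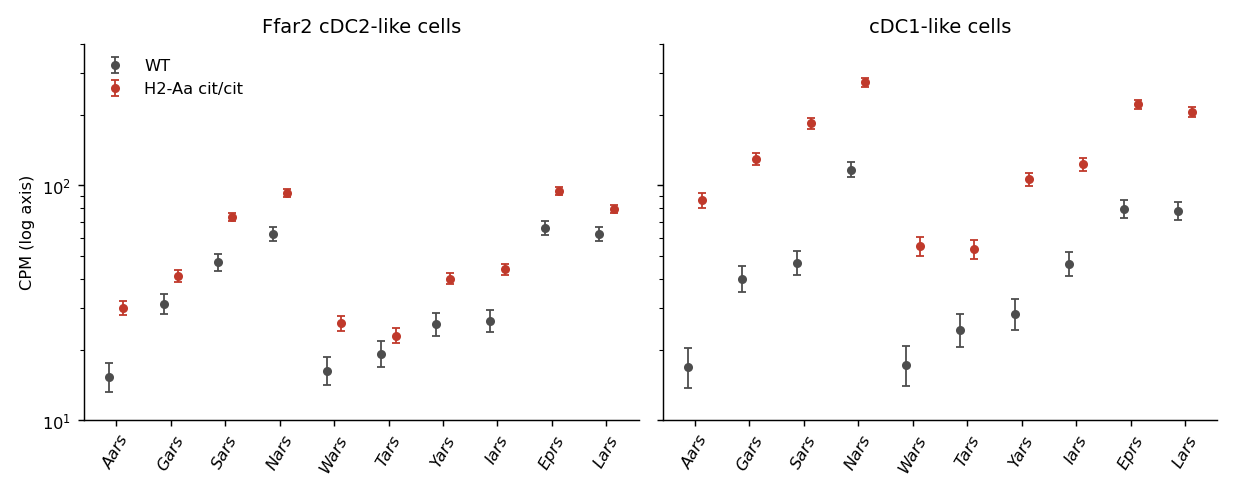
Level of each synthetase in CPM (log axis) in Ffar2 cDC2-like and cDC1-like cells of the WT library (grey) and the cit library (red), with exact Poisson 95% intervals for counting error and 1 library per genotype. In Ffar2 cDC2-like cells Tars was closest between libraries (19.1 and 23.0 CPM), and in cDC1-like cells all 10 red points stand clear of the grey ones.

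The differences were larger in cDC1-like cells, where all 10 synthetases were at least 1.3-fold higher in cit cells. In this class 17.2% of genes with at least 50 UMIs were higher by that fold. The lowest fold of the 10 was 2.21, for Tars, and the median log2 ratio was 1.58, against -0.03 for all genes. Aars was again the highest, with 105 UMIs (16.8 CPM) in WT and 700 UMIs (86.4 CPM) in cit cells, a 5.13-fold difference and a log2 ratio of 2.36 (2.06 to 2.67). Sars was at 46.8 and 184 CPM (1.97, 1.79 to 2.16), and Yars at 28.4 and 106 CPM (1.90, 1.67 to 2.15). These 3 enzymes all act outside the complex.

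Gars stood at 40.1 CPM in WT and 129 CPM in cit cDC1-like cells, and Wars at 17.1 and 55.1 CPM, both with a log2 ratio of 1.69. The 3 members of the complex lay close together. Eprs was at 79.5 and 221 CPM (2.79-fold), Iars at 46.3 and 123 CPM (2.66-fold), and Lars at 78.0 and 205 CPM (2.62-fold), with overlapping intervals. Nars was at 117 and 275 CPM, a log2 ratio of 1.23 (1.11 to 1.36). Tars was again the lowest in ratio, with 24.2 and 53.5 CPM, a log2 ratio of 1.15 (0.88 to 1.42). Aars and Tars thus stood at opposite ends of the ratios in both classes.

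Depth and cell make-up also differed within cDC1-like cells. Their median depth was 8728.5 UMIs in WT and 14292 UMIs in cit cells. Most of the class fell into a cluster led by Rab7b, Xcr1 and Cadm1, with 354 WT and 528 cit cells, and a second cluster, led by Gm11837, Cd207 and Cst3 and with a median ribosomal share of 34.7%, held 183 WT and 35 cit cells of the class. Within the first cluster alone the summed synthetase level was 516 CPM in WT and 1462 CPM in cit cells, with Aars at 16.2 and 88.6 CPM, and all 10 stayed at least 1.3-fold higher. The share of all genes past the fold within that cluster is not given here. Within the second the sums were 372 and 923 CPM, from only 343 and 155 UMIs. Of the 6 plasma cell markers, 4 had UMIs in WT and 3 in cit cDC1-like cells, and their summed level was 3.69 CPM in WT and 137 CPM in cit cells. Nearly all of that was Derl3, with 10 and 1109 UMIs, while Jchain had 5 and 3 UMIs, Igha 7 and 0, Prg2 1 and 0, Tnfrsf17 0 and 1, and Sdc1 0 in both. The class’s own cDC1 panel summed to 3408 CPM in WT and 2611 CPM in cit cells, and other panels were also lower in cit, with sums of 77.2 and 28.6 CPM for mature CCR7 DC, 217 and 101 CPM for pDC, 177 and 93.8 CPM for monocyte, 21.6 and 5.80 CPM for macrophage and 27.9 and 8.64 CPM for B markers. The Ccr2 panel was higher in cit, at 154 and 240 CPM, as was the neutrophil panel, at 1.76 and 9.25 CPM. The part of depth, of the clusters and of these markers in the result was not tested.

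**Figure D2:**
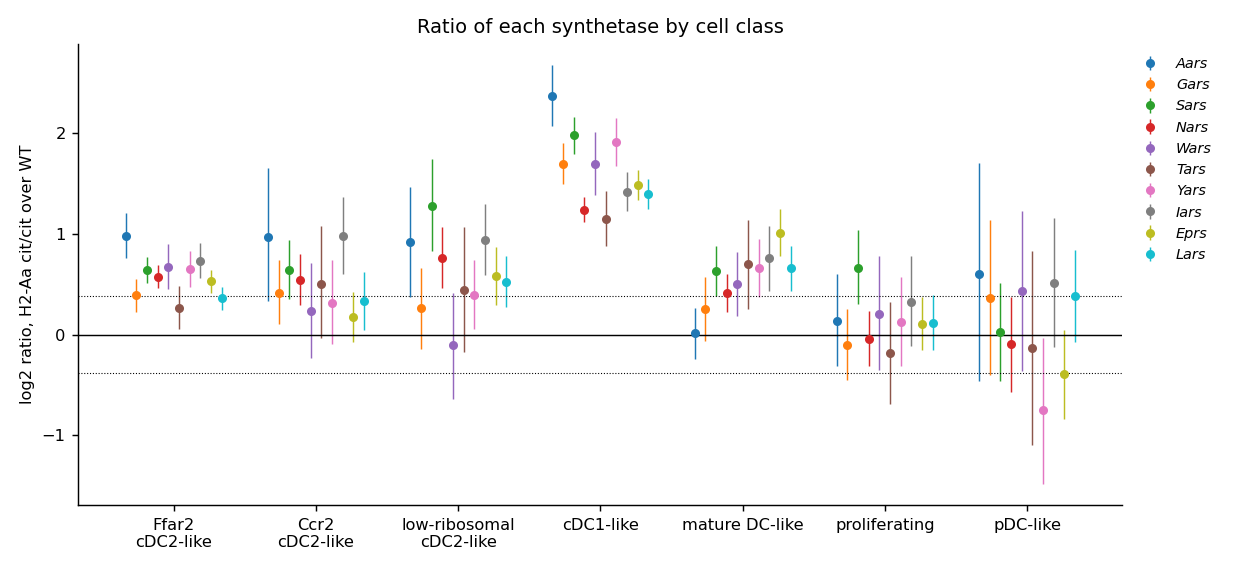
Log2 ratio of cit over WT for each synthetase (color) in 7 cell classes, with exact conditional binomial 95% intervals for counting error and dotted lines at 1.3-fold in either direction. The 10 points stand at 1.15 to 2.36 in cDC1-like cells and on both sides of 0 in pDC-like cells.

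In Ccr2 cDC2-like cells, 6 of the 10 synthetases were at least 1.3-fold higher in cit, where 10.7% of all genes counted were, and the median log2 ratio was 0.46. At a fold of 1.5 the count was 3 of the 10, with no share of all genes given here. Iars (28.9 and 56.8 CPM, log2 ratio 0.97, 0.60 to 1.37) and Aars (10.3 and 20.1 CPM, 0.96, 0.33 to 1.65) had the highest ratios. Sars, Nars, Tars and Gars were the other members past the fold, at log2 ratios of 0.64, 0.54, 0.50 and 0.41, and the interval of Tars (-0.03 to 1.08) included 0. Eprs stood at 76.9 CPM in WT and 86.8 CPM in cit cells, and its interval (-0.07 to 0.43) also included 0. With 25 WT UMIs for Aars and 37 for Tars, these ratios were less precise than in Ffar2 cDC2-like cells. The macrophage panel summed to 57.1 CPM in WT and 17.2 CPM in cit cells of the class and the mature CCR7 DC panel to 158 and 72.1 CPM, and their part in the result was not tested.

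In low-ribosomal cDC2-like cells, 8 of the 10 were at least 1.3-fold higher, where 14.6% of genes counted were, with a median log2 ratio of 0.55. The median depth of the class was 3369 UMIs in WT and 2593 UMIs in cit. At a fold of 1.5 the count was 4 of the 10, with no share of all genes given here. Sars had the highest ratio, with 19.0 CPM in WT and 46.0 CPM in cit cells (1.28, 0.83 to 1.73). Iars followed with 33.7 and 64.5 CPM and Aars with 14.4 and 27.1 CPM. The interval of Tars, counted among the 8, included 0 (-0.17 to 1.07). Wars was the exception in direction, with 21.5 CPM in WT and 19.9 CPM in cit cells, a log2 ratio of -0.11 whose interval (-0.64 to 0.41) included 0. Without the 25% of all cells with the lowest ribosomal share, only 80 WT and 177 cit cells of this class were left, 3 of 3 members with at least 50 UMIs were higher by the fold, and the ratios of Aars and Tars changed direction. No share of all genes is given for that smaller set. The neutrophil panel summed to 5.21 CPM in WT and 30.9 CPM in cit cells of the class and the Ccr2 panel to 83.7 and 183 CPM, and their part in the result was not tested.

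In mature DC-like cells, which are CCR7+ and carry antigen to T cells, 8 of the 10 were at least 1.3-fold higher in cit, but so were 20.3% of all genes counted, and the median over all genes was 0.09. The median of the members was 0.64. Eprs had the highest ratio, with 23.9 CPM in WT and 48.1 CPM in cit cells (1.01, 0.78 to 1.24). Aars, which had the highest ratio in Ffar2 cDC2-like and cDC1-like cells, was at 31.3 and 31.6 CPM here, a log2 ratio of 0.01 (-0.24 to 0.26). Its WT level in mature DC-like cells was about that of cit Ffar2 cDC2-like cells (30.2 CPM). Gars was at 17.9 and 21.4 CPM, with an interval (-0.06 to 0.57) that included 0. A cluster led by Mab21l3 and Gclc held 418 WT and 24 cit cells over all classes, and without its cells 9 of the 10 were past the fold, where 9.93% of genes were. Another cluster put with mature DC-like cells, led by Lta and Tex15, held 262 WT and 335 cit cells. Its summed synthetases were at 271 CPM in WT and 262 CPM in cit. The other clusters put with this class were higher in cit, such as that led by Dkk2 and Crispld2 (211 and 354 CPM). Over the class the cDC1 panel summed to 141 CPM in WT and 46.9 CPM in cit cells, the macrophage panel to 85.3 and 44.3 CPM, and the neutrophil panel to 2.38 and 13.0 CPM, and their part in the result was not tested.

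In proliferating cells, 1 of the 10, Sars, was at least 1.3-fold higher in cit, where 10.5% of all genes counted were. Sars had a level of 39.8 CPM in WT and 63.0 CPM in cit cells, a log2 ratio of 0.66 (0.31 to 1.03). The intervals of the 9 other members included 0, and their log2 ratios ran from -0.19 for Tars to 0.33 for Iars. The summed level was 458 CPM in WT and 501 CPM in cit cells, a log2 ratio of 0.13 (0.02 to 0.24). The few proliferating cells with cDC1 markers (56 in WT and 49 in cit) stood apart from the other proliferating cells. Their summed synthetases were at 587 CPM in WT and 1147 CPM in cit, with Aars at 23.0 and 73.0 CPM and Tars at 21.8 and 70.9 CPM.

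The pDC-like cells, specialized in type I interferon, showed no common direction. Of 8 members with at least 50 UMIs, 2 (Wars and Iars) were at least 1.3-fold higher, where 10.9% of genes counted were, and 2 (Yars and Eprs) at least 1.3-fold lower, where 12.4% of genes were. At a fold of 1.5 none was higher, and the share of all genes at that fold is not given here. Yars had 48 UMIs (38.6 CPM) in WT and 27 UMIs (23.0 CPM) in cit pDC-like cells, a log2 ratio of -0.75 (-1.48 to -0.04), the only interval of the 10 that did not include 0. Aars and Tars had fewer than 50 UMIs in this class and were at 11.3 and 17.0 CPM and at 17.7 and 16.2 CPM. The summed level was 417 CPM in WT and 426 CPM in cit cells, a log2 ratio of 0.03 (-0.15 to 0.21), so a difference of the size seen in Ffar2 cDC2-like cells (0.55) was outside the counting interval. Within the pDC-like class the pDC panel summed to 8681 CPM in WT and 7075 CPM in cit cells. The cDC2 panel summed to 885 and 862 CPM there and the Ccr2 panel to 959 and 847 CPM, and their part in the result was not tested. In monocyte-like and macrophage-like cells, with 116 and 110 WT cells, the summed log2 ratios were 0.08 (-0.17 to 0.34) and 0.02 (-0.44 to 0.46). Cells that no gate took were also counted, and there all 10 members were at least 1.3-fold higher in cit, where 13.1% of genes were.

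Within the WT library the classes themselves differed in summed synthetase level. It was highest in proliferating cells with cDC1 markers (587 CPM, 95% interval 536 to 642), followed by cDC1-like cells (494, 477 to 512) and proliferating cells (458, 430.2 to 488), and the intervals of the last pair overlapped. Macrophage-like, pDC-like, Ccr2 cDC2-like and monocyte-like cells lay between 389.6 and 428 CPM with overlapping intervals. Ffar2 cDC2-like cells (372, 361 to 382) and low-ribosomal cDC2-like cells (347, 327 to 367) came next and overlapped, and mature DC-like cells were lowest (229.6, 222 to 238). Although these levels overlapped, the log2 ratio of low-ribosomal over Ffar2 cDC2-like cells was -0.10 (-0.20 to -0.01).

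In the cit library cDC1-like cells were highest (1438 CPM, 1412 to 1465), above proliferating cells with cDC1 markers (1147, 1078 to 1218). Ccr2, Ffar2 and low-ribosomal cDC2-like cells followed at 558, 545 and 529.8 CPM with overlapping intervals. Proliferating cells were at 501 CPM, and macrophage-like, pDC-like and monocyte-like cells between 413 and 433 CPM, with mature DC-like cells again lowest at 335 CPM. The log2 ratio of cDC1-like over Ffar2 cDC2-like cells was 0.41 (0.34 to 0.48) in WT and 1.40 (1.37 to 1.44) in cit cells. Mature DC-like cells were below Ffar2 cDC2-like cells by nearly the same ratio in both libraries, at log2 ratios of -0.69 and -0.70.

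**Figure D3:**
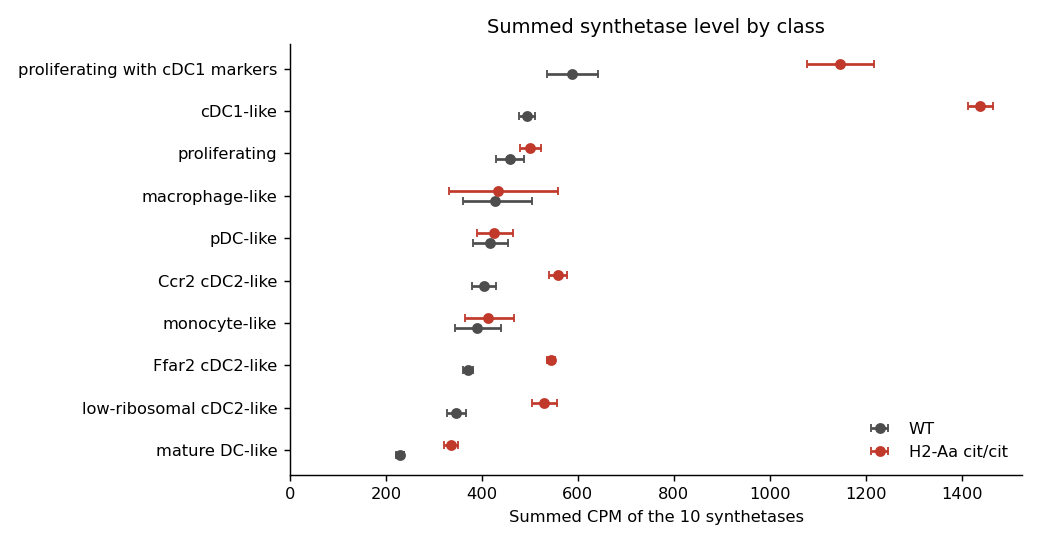
Summed CPM of the 10 synthetases in 10 cell classes of the WT library (grey) and the cit library (red), ordered by the WT level, with exact Poisson 95% intervals. The libraries are farthest apart in cDC1-like cells (494 and 1438 CPM) and their intervals overlap in proliferating, pDC-like, monocyte-like and macrophage-like cells. In proliferating cells the interval of the log2 ratio itself (0.02 to 0.24) lay above 0.

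To see how the UMIs were spread over single cells at equal depth, each cell was thinned to 3000 UMIs. In Ffar2 cDC2-like cells the mean was 1.13 synthetase UMIs per cell in WT (1494 cells, 71 shallower cells left out) and 1.58 in cit (3915 cells, 126 left out). The median was 1 in both, and no synthetase UMI was found in 32.9% of WT and 26.3% of cit cells (9.78% and 9.90% without thinning). At least 5 synthetase UMIs were found in 13 WT cells (0.870%, exact interval 0.464 to 1.48%) and in 206 cit cells (5.26%, 4.58 to 6.01%). Without thinning the shares with at least 5 were 22.0% and 31.0%, at median depths of 8050 and 6799 UMIs.

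In cDC1-like cells the whole distribution differed, with a median of 1 synthetase UMI in WT (510 cells, 62 left out) and 4 in cit (549 cells, 40 left out). At least 5 were found in 2.94% (1.66 to 4.80%) of WT and 42.1% (37.9 to 46.3%) of cit cells, and none at all in 28.2% and 4.37%. Without thinning, at least 5 were found in 45.6% and 86.2% of cells. In pDC-like cells the share with none was 28.3% in both libraries.

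**Figure D4:**
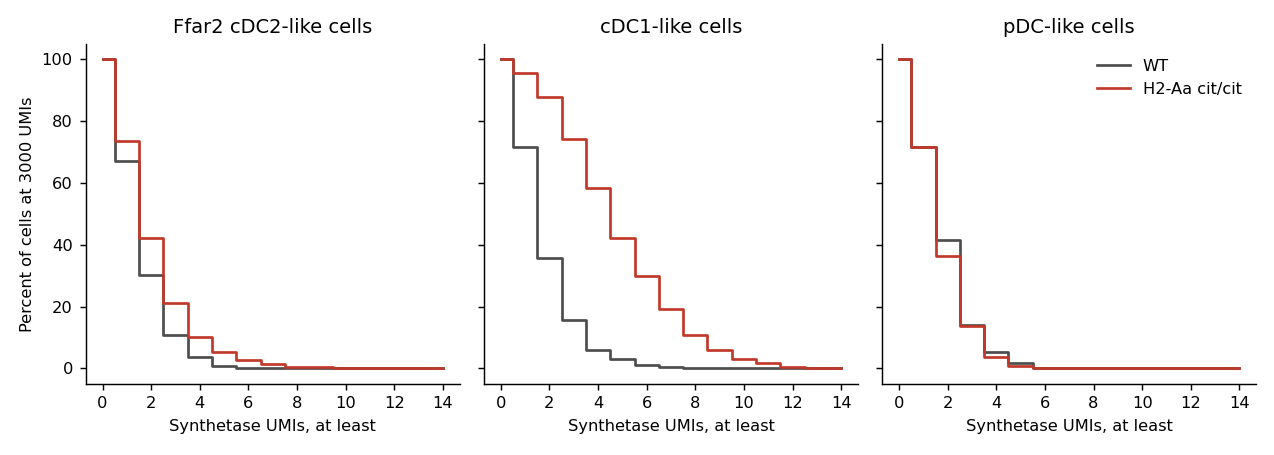
Percent of cells with at least the given number of synthetase UMIs after thinning to 3000 UMIs per cell, in Ffar2 cDC2-like, cDC1-like and pDC-like cells of the WT library (grey) and the cit library (red). At 5 or more the curves read 0.870% and 5.26% in Ffar2 cDC2-like cells and 2.94% and 42.1% in cDC1-like cells.

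Of the 206 cit Ffar2 cDC2-like cells with at least 5 synthetase UMIs, 127 belonged to 1 cluster that came almost wholly from the cit library and held 542 of the 3915 thinned cit cells of the class. The synthetases had been left out of the genes used for clustering. This cluster held 1 WT and 778 cit cells, 548 of them in the Ffar2 cDC2-like class, and its leading genes included Cox6a2, Atf5, Nupr1, Ddit3 and Trib3. A cluster mostly of 1 library may be that library rather than a cell type. In its Ffar2 cDC2-like cells the summed synthetases were at 1084 CPM (1053 to 1116), against 457 CPM (449 to 465) in the other 3493 cit cells of the class and 372 CPM in WT. Aars was at 78.5 CPM in the cluster, 22.3 CPM in the other cit cells and 15.3 CPM in WT. Tars was at 39.2, 20.3 and 19.1 CPM in the same order. Without the cluster, 3 of the 10 (Aars, Wars and Iars) were at least 1.3-fold higher in cit, where 7.27% of genes were, the median log2 ratio was 0.30, and the interval of each member but Tars (-0.13 to 0.31) lay above 0.

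The members were then read against the other known targets and regulators of ATF4 in the same thinned cells, a list of 24 genes that shares none with the members. Its genes Atf5, Nupr1, Ddit3 and Trib3 also lead the cluster found almost wholly in cit, so this reading and that of the cluster are not independent. In cit Ffar2 cDC2-like cells the summed synthetases were at 373 CPM (346 to 402) in the 631 cells with 0 UMIs of that list, 417 CPM in the 995 cells with 1, 465 CPM in the 1433 cells with 2 to 3, and 870 CPM (834 to 906) in the 856 cells with 4 or more. The WT cells of the class showed no such gradient, with 370 CPM (335 to 409) in the 350 cells with 0 UMIs and 374 CPM (307 to 450) in the 99 cells with 4 or more. At 0 UMIs of the list the libraries thus had overlapping intervals. At 2 to 3 UMIs they did not, with 384 CPM (355 to 416) in WT and an interval of 445 to 486 CPM in cit. The genes that gave the UMIs of the list may differ between libraries, with Atf5 at 2.41 and 27.0 CPM and Ddit3 at 13.6 and 54.1 CPM in this class. The part of this in the result was not tested. The 10 other cytosolic synthetases moved less, from 273 CPM (250 to 298) at 0 UMIs to 338 CPM (316 to 361) at 4 or more in cit cells. Because members and lists were chosen with earlier results of these data known, this contrast is a description and not independent evidence.

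In cDC1-like cells the same reading gave 383 CPM (333 to 439) at 0 UMIs and 683 CPM (494 to 919, 21 cells) at 4 or more in WT, and 556 CPM (375 to 793, 18 cells) and 1578 CPM (1508 to 1651, 400 cells) in cit. Between 2 and 3 UMIs the sums were 478 CPM in WT and 1186 CPM in cit cells. Cells with 2 to 3 UMIs of these targets thus still differed between libraries in this class, as they did in Ffar2 cDC2-like cells. The genes that gave those UMIs may differ too, with Atf5 at 4.17 CPM in WT and 156 CPM in cit cells of the class. The part of this in the result was not tested. The other cytosolic synthetases also had higher levels at 4 or more UMIs than at 0 here. In WT they were at 252 CPM (211 to 298) and 413 CPM (270 to 605), at 0 and at 4 or more. In cit they were at 333 CPM (198 to 527) and 458 CPM (421 to 498), and both pairs of intervals overlapped. Whether the members rose more than these in WT was not tested. These are descriptions over cells of 1 library each, not replicates.

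**Figure D5:**
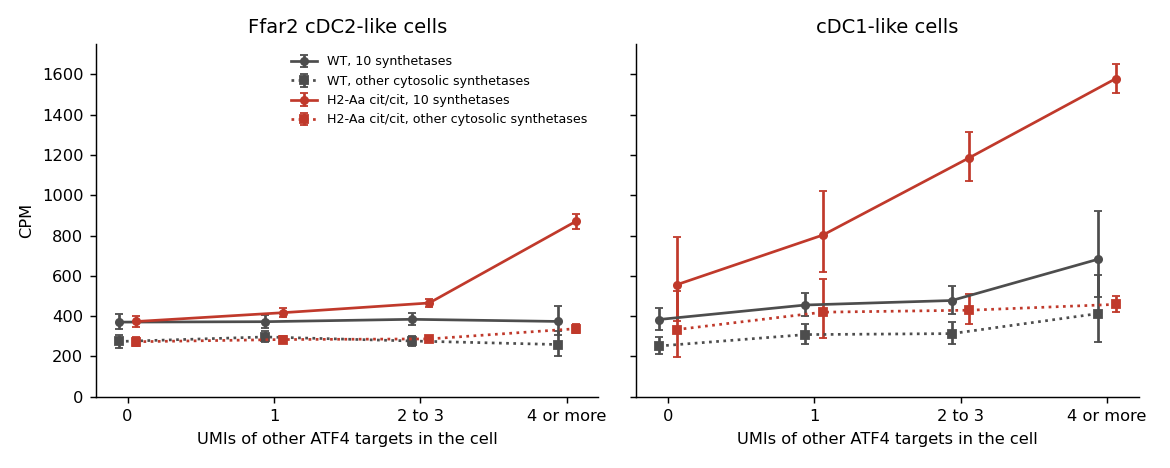
Summed CPM of the 10 synthetases (circles, solid lines) and of the 10 other cytosolic synthetases (squares, dotted lines) in cells thinned to 3000 UMIs, by the number of UMIs of other ATF4 targets in the cell, with exact Poisson 95% intervals. In Ffar2 cDC2-like cells the cit line runs from 373 to 870 CPM while the WT line stays between 370 and 384 CPM.

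Of the 10 other cytosolic synthetases, 2 were at least 1.3-fold higher in cit Ffar2 cDC2-like cells (median log2 ratio 0.10) and 6 in cDC1-like cells (0.42). Of all genes counted, 7.95% and 17.2% were higher by that fold in these classes. The split into members and others was made with earlier results of these data known, so their counts are not independent evidence. Over Ffar2 and Ccr2 cDC2-like cells together, Cars (cysteine, 8.38 and 16.3 CPM, log2 ratio 0.96) and Mars1 (methionine, 10.9 and 18.4 CPM, 0.76) had the highest ratios of this list and Dars (aspartate, -0.14) and Rars (arginine, -0.23) the lowest. The members of the complex thus did not all move alike. Mars1 was higher in cit Ffar2 cDC2-like cells, as Eprs, Iars and Lars were, while Rars was lower (-0.30, -0.47 to -0.13), and the intervals of Dars (-0.12, -0.24 to 0.00), Kars (0.03, -0.18 to 0.25) and Qars (0.07, -0.13 to 0.27) included 0. In cDC1-like cells Rars (0.34, 0.11 to 0.58), Kars (0.39, 0.07 to 0.71) and Qars (0.63, 0.37 to 0.90) had intervals above 0 and Dars (-0.23, -0.42 to -0.05) one below it. In mature DC-like cells Dars was at 0.30 (0.00 to 0.60). Of the 3 scaffold proteins of the complex, over Ffar2 and Ccr2 cDC2-like cells, Aimp2 was at 7.86 and 10.7 CPM (0.45), Aimp1 at 109.6 and 110.2 CPM (0.01) and Eef1e1 at 24.0 and 20.7 CPM (-0.21).

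The list of mitochondrial synthetases, which serve translation in the mitochondria, has no separate entry for glycine, lysine or glutamine. None of its 17 genes was past the fold in either direction in Ffar2 cDC2-like cells, and their median log2 ratio was -0.05. In cDC1-like cells 14 were counted, 3 higher and 2 lower (17.2% of all genes were higher and 18.7% lower), with a median of 0.09. Over Ffar2 and Ccr2 cDC2-like cells the highest ratios were those of Nars2 (0.34) and Sars2 (0.28) and the lowest those of Yars2 (-0.19) and Lars2 (-0.32). In Ffar2 cDC2-like cells Sars2 had a log2 ratio of 0.19 (-0.19 to 0.58) beside 0.64 (0.51 to 0.77) for its cytosolic counterpart Sars, with overlapping intervals, and Nars2 0.30 (0.08 to 0.52) beside 0.57 (0.46 to 0.69) for Nars, also overlapping. The 5 elongation factors, which act after the synthetases in translation, were all within the fold in both classes, with medians of 0.10 and 0.19, and over Ffar2 and Ccr2 cDC2-like cells Eef1g (0.15) and Eef2 (0.12) had the highest ratios and Eef1a1 (0.07) and Eef1b2 (0.04) the lowest.

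Over the genes counted, the other ATF4 targets and regulators had higher median ratios than the synthetases in both Ffar2 cDC2-like and cDC1-like cells. Of 21 counted, 16 were at least 1.3-fold higher in Ffar2 cDC2-like cells (median log2 ratio 0.91) and 20 in cDC1-like cells (2.49). The minimum of UMIs was asked of both libraries together, so genes with few WT UMIs could be counted mainly through the cit library. In Ffar2 cDC2-like cells Trib3 had 1 WT and 230 cit UMIs, Chac1 2 and 65, and Asns 3 and 228. Whether the list would still rank above the synthetases with a minimum asked of WT alone was not tested. Asns, which makes the asparagine that Nars uses, had 4 UMIs in WT and 261 in cit Ffar2 and Ccr2 cDC2-like cells (log2 ratio 4.80, 3.42 to 6.68), and Trib3, a pseudokinase induced by ATF4, had 2 and 270 UMIs (5.84, 3.98 to 8.90). Sesn2 (0.00) and the cystine transporter gene Slc7a11 (-0.01) did not differ beyond their counting intervals there. Atf4 mRNA itself was at 42.3 and 68.4 CPM in Ffar2 cDC2-like cells and at 50.8 and 202 CPM in cDC1-like cells. In proliferating cells 11 of 18 counted were higher (median 0.54), where 1 of the 10 synthetases and 10.5% of all genes were. In pDC-like cells 3 of 9 counted were higher and 2 lower, where 10.9% of all genes were higher and 12.4% lower.

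All 14 ER chaperones were at least 1.3-fold higher in both classes, with medians of 1.70 in Ffar2 cDC2-like and 2.51 in cDC1-like cells. Creld2 (2.32) and Sdf2l1 (2.11) had the highest ratios over Ffar2 and Ccr2 cDC2-like cells and Dnajb11 (0.80) and Canx (0.71) the lowest. In proliferating cells all 14 were higher too (median 1.22), although only 1 synthetase was. In pDC-like cells 3 of 14 were, where 10.9% of all genes were. Of the 14 interferon gamma response genes, listed because Wars is one of their kind, 8 were higher in Ffar2 cDC2-like cells (0.44), with Iigp1 (3.13) and Cxcl10 (1.07) highest and Irgm1 (0.10) and Gbp3 (0.02) lowest over the cDC2-like cells. In Ccr2 cDC2-like cells 11 of 14 were higher, with a median of 1.24, while Wars was at 21.9 and 25.7 CPM (0.23, -0.23 to 0.71).

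Over the 20 profiles given by 10 classes in 2 libraries, each member's log2 level followed that of the 9 others with a Pearson r between 0.64 (Aars) and 0.89 (Nars). The profiles share their library and depth, so these values are descriptions. Among 6535 genes with at least 20 CPM over all cells, the 5 whose profile was most like that of the summed members were Slc35b1 (r = 0.95), a transporter of ATP into the ER, the ER chaperones Hyou1 (0.92) and Pdia4 (0.91), Eif2s2 (0.91), the beta subunit of eIF2, and Sec11a (0.90), a subunit of the signal peptidase. Hyou1 ranged from 5.36 to 223 CPM over these profiles and Eif2s2 from 92.9 to 459 CPM.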

How the data were processed

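Droplet 3′ scRNA-seq was done on 2 libraries of sorted splenic DC. The authors aligned reads to GRCm38 (mm10 per the labels) with Cell Ranger 5.0.1 and deposited raw UMI counts. The annotation version is not given in the sources used here. Every cell in the files had at least 500 UMIs and 240 genes, above the 200 genes the study asked for, and all were kept. No doublet caller was run. Cells that passed certain pairs of gates, such as those for pDC-like and cDC1-like cells, were set aside. Cells that passed both the pDC and the cDC2 gate stayed pDC-like. Mature DC-like, monocyte-like and macrophage-like calls replaced cDC1-like or cDC2-like ones.

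A cell joined a class when at least 2 markers had a UMI and the panel reached, per 10000 UMIs of the cell, 4 for cDC2-like, 8 for cDC1-like, 15 for mature DC-like, 30 for pDC-like, 12 for proliferating and monocyte-like and 20 for macrophage-like cells. Ccr2 cDC2-like cells needed 5 for their panel and more of it than of the Ffar2 panel. The cDC2-like cells that were neither Ccr2 cDC2-like nor low-ribosomal were called Ffar2 cDC2-like. No level of the Ffar2 panel was asked of them. These numbers and the ribosomal limit of 8% were set after the distributions had been seen, and 1098 cells lay within 25% below and 1175 within 25% above the cDC2-like number. The gates left 1874 WT and 3003 H2-Aa cit/cit cells unassigned.

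For each class and library, a gene’s UMIs were added up and divided by the class total (CPM). Levels carry exact Poisson, ratios exact conditional binomial and shares of cells exact Clopper-Pearson 95% intervals. Genes with at least 50 UMIs in a class, over both libraries together, and a UMI in both libraries were counted. A difference of 1.3-fold was called higher or lower. All 10 members are named, and of each other list the 2 genes with the highest and 2 with the lowest ratio in Ffar2 and Ccr2 cDC2-like cells together. Atf4, Kars, Qars, the plasma cell markers and the genes that describe clusters were chosen after their values were seen. The members, lists and motif were chosen with earlier results of these data known. Ddit3 has 2 entries in the files, and the entry whose identifier a gene name reference assigns to Ddit3 was used. Clusters were made with scanpy 1.11.5 (2000 variable genes without the members, 30 principal components, 15 neighbors, resolution 1.0, 26 clusters). Other steps used scipy 1.17.1, pandas 2.3.3 and numpy 2.4.6 (Python 3.11.15), and the ratio intervals were checked on simulated data. Alternatives were other scalings, gates, minimums and folds, and cells left out.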

Additional observations from a re-analysis of the deposited data

Results flagged for a closer look

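Yars is listed here because its direction differed between classes. Its log2 ratio of cit over WT was -0.75 in pDC-like cells, from 48 WT and 27 cit UMIs, with an interval of -1.48 to -0.04. In Ffar2 cDC2-like cells it was 0.64, in low-ribosomal cDC2-like cells 0.39, in cDC1-like cells 1.90 and in mature DC-like cells 0.66, each with an interval above 0. With 1 library per genotype the difference between classes was not tested.

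The 1874 WT and 3003 cit cells that no gate took form the other listed result, since the comparisons by class do not use them. Their summed synthetases were at 378 CPM in WT and 622 CPM in cit, a log2 ratio of 0.72 (0.65 to 0.79). The ratios of single members ran from 0.54 for Yars to 0.86 for Sars. These cells had median depths of 2600 and 2429 UMIs and median ribosomal shares of 5.22% and 7.77%, and the part of either in the result was not tested. No cluster was left out here. How many cells of the cluster found almost wholly in cit were among them is not given.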

How the results depend on the processing

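In cDC1-like cells all 10 members stayed past the fold under every alternative run, with median log2 ratios from 1.54 to 1.61. The count of members at least 1.3-fold higher moved by more than 1.5 times in other classes. At a fold of 1.5 it was 5 in Ffar2, 3 in Ccr2 and 4 in low-ribosomal cDC2-like and 0 in pDC-like cells. Without the cluster of nearly all cit cells, an alternative chosen after seeing the data like those of the other clusters left out, it was 3 in Ffar2 cDC2-like cells and the median log2 ratio 0.30. In low-ribosomal cDC2-like cells it was 5 of 6 at a minimum of 200 UMIs and 3 of 3 without the 25% of cells with the lowest ribosomal share, where Aars (-0.31) and Tars (-0.10) reversed. In proliferating cells it was 3 with clusters in place of the gate, 3 with the stricter gate, 2 as a mean over cells and 2 without those 25%. In pDC-like cells it was 0 with clusters and 0 with the stricter gate, and no member there had 200 UMIs. Apart from the set without the cluster, the share of all genes under these alternatives is not given here, so these counts describe the members only. Of 448 values of single members, 426 stayed within their intervals, 20 moved outside and 2 reversed. No paired analysis was possible because each genotype has 1 library.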
